A study of Homo sapiens with 4 samples.

Results

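Kinesins are the motor proteins that walk along microtubules, and the kinesin motor genes are described here in HCT116 cells after suppression of LINC00152. The genes were chosen by symbol: every symbol that starts with KIF or KIFC followed by a digit was taken, which gave 43 of the 19974 symbols in the deposited tables. HCT116 is a cell line from a human colorectal carcinoma, and all results rest on this 1 line. Control cells received a scramble siRNA (si-NC) and knockdown cells an siRNA against the long noncoding RNA LINC00152 (si-152). Both were used at 100 nM for 36 h, and total RNA was sequenced from 2 biological replicates a group. The values were read as FPKM, a level per length of transcript that can be set side by side between genes.

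A kinesin couples ATP hydrolysis in its motor domain to movement along, or disassembly of, a microtubule. The family is usually divided by task. Mitotic kinesins build the spindle, align the chromosomes and close the cleavage furrow, and most of them are made around G2 and M phase, so their RNA is high in dividing cells. Transport kinesins carry vesicles, organelles and RNA granules through the interphase cytoplasm, and several of them are largely neuronal. A further set acts in cilia, in Hedgehog signaling or at microtubule ends. The 43 symbols were divided into 15 mitotic kinesins, 15 transport kinesins, 12 other kinesins and 1 pseudogene symbol (KIF28P).

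The summed FPKM lay between 424754 and 534311 per library, and how many reads stand behind them is not given. Of 8 epithelial markers, 6 were at 1 FPKM or more in every library, while KRT20 was listed at 0 in all of them and VIL1 reached at most 0.0567 FPKM. Of 6 markers each for fibroblasts, leukocytes and neurons, 5 in each list were below 1 FPKM in every library. The exceptions were COL1A1, CD68 and SYT1. The summed level of the neuronal list, nearly all of it SYT1, was 22.1 and 12.5 FPKM with si-NC, against 17.0 and 11.8 FPKM with si-152. PTPRC, COL1A2, DCN, STMN2, NEFL and NEFM were listed at 0 throughout. The level of LINC00152 itself was not analysed here, so its suppression was not checked in these libraries. The study measured LINC00152 by RT-qPCR in HCT116 cells transfected for other lengths of time.

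Of the 43 kinesin genes, 25 had at least 1 FPKM in at least 2 libraries and were tested: 11 mitotic, 10 transport and 4 other kinesins. Of the 18 that were not tested, 4 were mitotic, 5 transport and 8 other kinesins, and the last was KIF28P. KIF2B, KIF25 and KIF28P were listed at 0 in all 4 libraries. The transport kinesins below the limit were KIF1A, KIF3C, KIF5A, KIF5C and KIF17. KIF1A, KIF5A and KIF5C are the neuronal members of their subfamilies, and KIF1A was at most 0.0130 FPKM, and KIF5A at most 0.573 FPKM. KIF5C reached 0.974 FPKM, and KIF3C 0.894 FPKM. Among the other kinesins, KIF9 came closest to the limit, with 0.847 and 0.770 FPKM with si-NC, against 0.931 and 1.18 FPKM with si-152.

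The mitotic kinesins below the limit, chosen here after their values were seen, were KIF15, KIFC1, KIF4B and KIF2B. KIFC1, the minus-end-directed motor that focuses spindle poles, had 0.380 and 0.439 FPKM with si-NC and 0.220 and 0.572 FPKM with si-152. KIF15, which shares the work of KIF11 in keeping spindle poles apart, had 0.696 and 0.127 FPKM with si-NC and 0.0814 and 0.0860 FPKM with si-152. For comparison, KIF14, the least abundant of the tested mitotic kinesins, was never below 2.37 FPKM. KIF4B, a near-identical copy of KIF4A, reached 0.0610 FPKM, and reads of such copies may be divided between them in an unknown way. How reads that match more than 1 place were counted is not given for any of these genes. A low value here therefore does not by itself show that little RNA was made.

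The promoters of the mitotic kinesins were searched for a pair of motifs known from genes of G2 and M phase. TTTGAA is the core of the cell cycle genes homology region, which the DREAM and MuvB complexes bind, and CCAAT is bound by NF-Y. Each was searched on both strands from 250 bases before to 50 bases after the RefSeq start of each gene (GRCh38.p14), and a stretch shared by both motifs counts for both. TTTGAA was found for 10 of the 15 mitotic kinesins (66.7%), against 18.2% of the 27305 genes of the promoter table. CCAAT was found for 11 of the 15 (73.3%), against 39.7%. Of 20 tested other genes of G2 and M phase, described below, 18 had a promoter entry. Among these 18, TTTGAA was found for 14 and CCAAT for 14 (77.8% each), so these shares are not particular to mitotic kinesins. A promoter entry was matched for 11 of the 15 transport kinesins, under the 80% that a share would need, so no share is given. Of these 11, KIF5B held both motifs, and KIF1B, KIF3B and KIF5C held CCAAT and no TTTGAA. Among tested mitotic kinesins, KIF23, KIF11 and KIF4A hold TTTGAA, as do KIF18A, KIF18B, KIF20B and KIF14. KIF20A, KIF22, KIF2A and KIF2C do not.

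The windows below show tested mitotic kinesin genes in which TTTGAA lies before the start, with KIF5B for contrast. In KIF14, KIF18B, KIF20B, KIF4B and KIFC1 the motif lies from 1 to 30 bases after the start, and these are not shown. Each window is 30 bases long in the direction of transcription and ends with the motif. The promoter end was looked up near the starts of annotated transcripts (GENCODE v29) of the same strand. It was found for 5 of 6 such windows, counting that of KIF15, which is not shown. Capitals mark a match of either motif on either strand.
KIF4A, chrX:70290046-70290075, plus strand, motif 34 bases before the start: ATTGGttggcgtctccgggacggaTTTGAA
KIF11, chr10:92593078-92593107, plus strand, motif 28 bases before the start: ttggtccggctactctgtctctttTTCAAA
KIF23, chr15:69414270-69414299, plus strand, motif 55 bases before the start: tgcggacgggcgctgATTGGcccgTTTGAA
KIF18A, chr11:28108161-28108190, minus strand, motif 10 bases before the start: aagcgctgaggaaagtggcttgggTTTGAA
KIF5B, chr10:32056560-32056589, minus strand, motif 140 bases before the start: tgcgacaggggcagtgcagtaaaaTTTGAA
In KIF4A and KIF23 both motifs stand within the window. The other genes shown also hold CCAAT, but it begins outside the window. Counted from the start, it lies at -53 in KIF11, -45 in KIF18A and -59 in KIF5B. In KIF5B the motif lies farther from the start than in the mitotic genes shown. A match of letters does not show that a factor binds there.

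**Figure D1:**
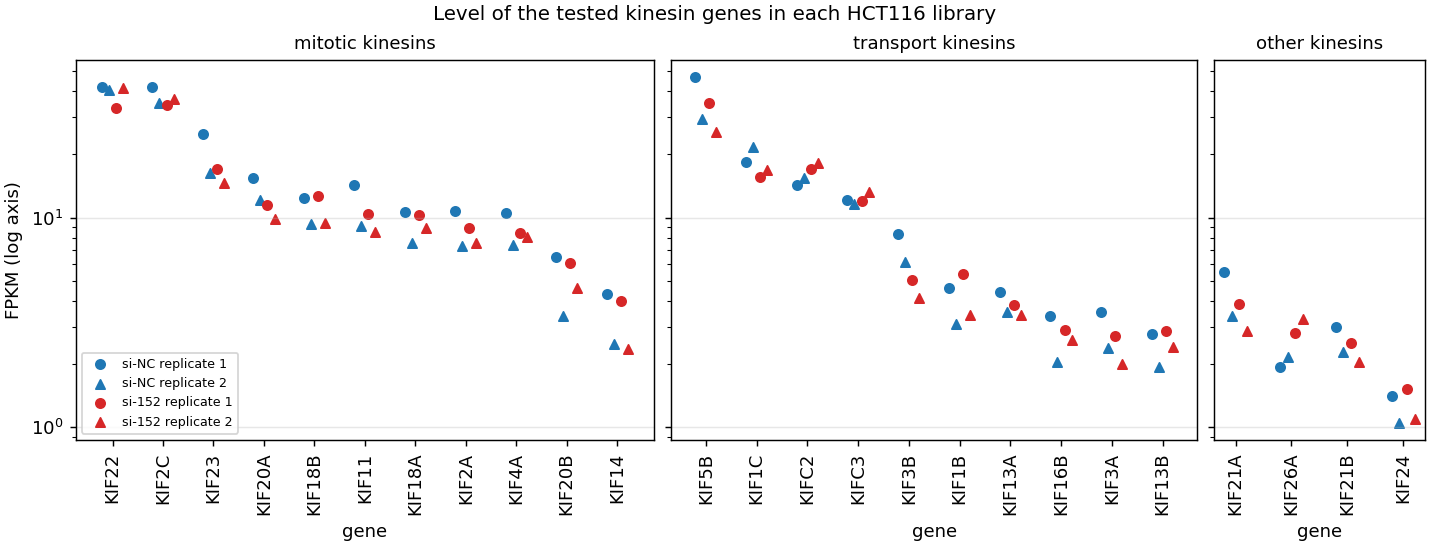
FPKM (log axis) of the 25 tested kinesin genes in each of the 4 libraries, in 3 panels by role and ordered by mean level. Colors mark the groups, circles replicate 1 and triangles replicate 2. KIF22, KIF2C and KIF5B lead, and circles lie above triangles of the same color for most genes.

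The most abundant kinesins were KIF22, KIF2C and KIF5B. KIF22, a chromokinesin that pushes chromosome arms toward the spindle equator, had 41.8 and 40.4 FPKM with si-NC and 33.5 and 41.4 FPKM with si-152. KIF2C, a microtubule-depolymerizing kinesin that corrects faulty kinetochore attachments, had 41.7 and 35.1 FPKM with si-NC and 34.6 and 36.6 FPKM with si-152. For both genes 1 si-152 library lay within the range of si-NC or above it. KIF5B, the heavy chain of conventional kinesin, ranged from 25.7 FPKM in si-152 replicate 2 to 46.6 FPKM in si-NC replicate 1. Its si-NC libraries alone were at 46.6 and 29.6 FPKM, so the 35.0 FPKM of si-152 replicate 1 fell between them.

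The family as a whole was carried by the mitotic members. Mitotic kinesins made up 59.0% and 57.9% of the summed kinesin FPKM in si-NC, and 57.3% and 59.1% in si-152. The summed level of the mitotic kinesins was 194.7 and 151.1 FPKM with si-NC, against 157.9 and 152.5 FPKM with si-152, and that of the transport kinesins 121.2 and 99.3 FPKM against 104.8 and 94.0 FPKM. The ratio of the first sum to the second was 1.61 and 1.52 in si-NC and 1.51 and 1.62 in si-152. These ratios overlapped completely between the groups. In RNA from whole cultures, fewer dividing cells and less RNA per dividing cell cannot be told apart.

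Whether mitotic and transport kinesins responded differently to si-152 was asked next. In the limma fit, 8 of the 11 tested mitotic kinesins and 5 of the 10 tested transport kinesins had a log2 fold change below 0, against 45.8% of the 11222 genes tested. The median log2 fold change (si-152 minus si-NC, on log2(FPKM + 1)) was -0.10 for mitotic and -0.03 for transport kinesins, and 0.02 for all tested genes. The difference between the medians of both roles was -0.07. It was -0.09 between replicate 1 libraries and -0.0086 between replicate 2 libraries, with an SD of 0.0606 over the 2 pairs, so it was about as large as the spread between pairs. Without si-NC replicate 1 the difference turned to 0.078, and the mitotic median to 0.15. Without si-NC replicate 2 the mitotic median was -0.31.

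The pairs disagreed on the mitotic kinesins. In pair 1, the replicate 1 libraries, 10 of the 11 were lower in si-152, with a median of -0.26. In pair 2, the replicate 2 libraries, 4 were lower, and the median was 0.04. Of the 10 transport kinesins, 7 were lower in pair 1, with a median of -0.17, and 5 in pair 2, with a median of 0.04. The median of all tested genes was -0.03 in pair 1 and 0.07 in pair 2, so 10 and 8 of the mitotic kinesins lay below it, and 6 and 5 of the transport kinesins. With median-of-ratios size factors, the pair 2 medians turned to -0.04 for mitotic and -0.02 for transport kinesins, and with quantile normalization to -0.05 and -0.03. Over all 25 tested kinesins, 11 were lower in both pairs (27.3% of all tested genes were), 6 were higher in both (35.6% were) and 8 went in opposite directions. Of these 8, 6 were mitotic and 2 were transport kinesins.

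**Figure D2:**
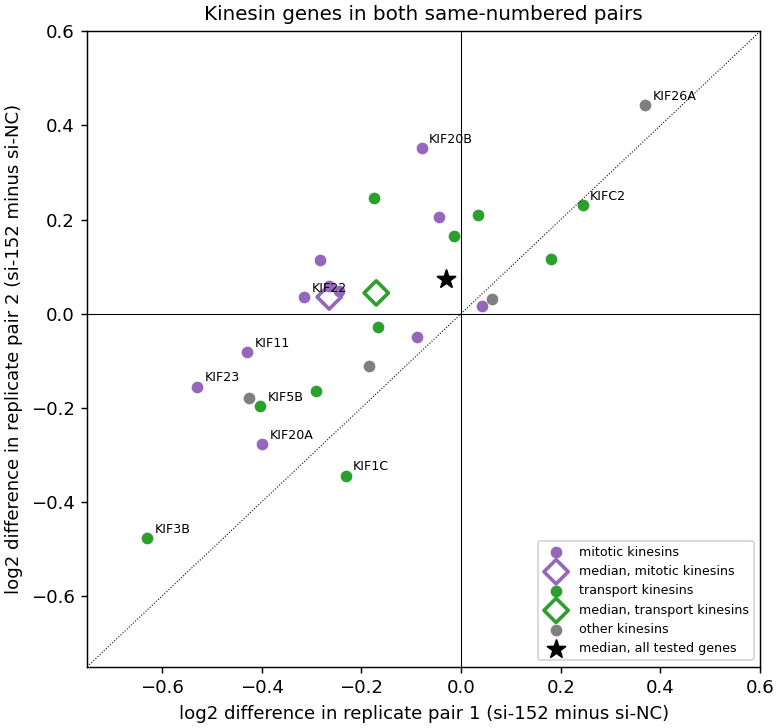
Log2 difference (si-152 minus si-NC, on log2(FPKM + 1)) of the 25 tested kinesin genes between replicate 1 libraries (x axis) and between replicate 2 libraries (y axis). Diamonds are the medians of the roles, the star is the median of all tested genes, and the dotted line marks equal differences. KIF3B lies farthest to the lower left at -0.63 and -0.48, and most mitotic kinesins lie left of 0 but near 0 on the y axis.

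At an unadjusted p under 0.05 by limma, 1 of the 25 tested kinesins was called, against 4.38% of all tested genes, so the share called in the family was near the background. That kinesin, KIF3B, was lower in si-152 (2.5% of all tested genes were called lower), and 0 kinesins were called higher (1.89% were). None of the 25 differed by more than 1.5-fold on the log2(FPKM + 1) scale. KIF3B passed that fold with a pseudocount of 0.1 (-0.64), with quantile normalization (-0.61), without si-NC replicate 2 (-0.75) and without si-152 replicate 1 (-0.67). In the fit of all libraries, 0 of the 25 had an adjusted p under 0.05, which 2 genes of the whole table (0.0178%) had. With the replicate number as a block, which the labels do not tie to a shared batch, 7 of the 25 had an unadjusted p under 0.05 (16.9% of all tested genes had) and 0 an adjusted p under 0.05 (0.695% had). The groups did not overlap for 5 of the 25 kinesins, against 30.4% of all tested genes. KIF3B, KIF20A and KIF1C were lower in both si-152 libraries than in both si-NC libraries, and KIF26A and KIFC2 were higher.

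KIF3B was the kinesin with the lowest p. It lies on chromosome 20 of GRCh38.p14 from 32277651 to 32335011 and encodes a motor subunit of heterotrimeric kinesin-2, which carries cargo toward the microtubule plus end and builds cilia. Its level was 8.34 and 6.12 FPKM in si-NC (7.23 ± 1.56, SD, n = 2) and 5.03 and 4.12 FPKM in si-152 (4.58 ± 0.648, SD, n = 2). Both si-152 libraries lay below both si-NC libraries. The log2 fold change was -0.55 (SE 0.21, 95% interval -1.03 to -0.08). Adjusted over all tested genes, it did not pass (limma, adjusted p = 0.9996). The difference was -0.63 in pair 1 and -0.48 in pair 2. The call at an unadjusted p under 0.05 was lost without si-NC replicate 1 (-0.36), without si-152 replicate 2 (-0.43) and with no filter on low values.

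The other subunits of the same heterotrimer were looked up after these values were seen. KIF3A, the motor partner of KIF3B, had 3.55 and 2.38 FPKM with si-NC and 2.72 and 2.01 FPKM with si-152. Its groups overlapped, and its log2 fold change was -0.23 (SE 0.23, 95% interval -0.74 to 0.28). KIFAP3 encodes the non-motor subunit that links both motors to cargo, and it belongs to the list of light chains and adaptors rather than to the kinesin genes. KIFAP3 had 7.95 and 7.09 FPKM with si-NC and 3.72 and 3.60 FPKM with si-152, with no overlap. Its log2 fold change was -0.87 (SE 0.19, 95% interval -1.29 to -0.44), at -0.92 in pair 1 and -0.81 in pair 2. KIFAP3 was among the 186 genes (1.66% of those tested) with an unadjusted p under 0.05 and a fold change above 1.5. Over all tested genes it did not pass (limma, adjusted p = 0.468), while with the replicate number as a block it did (limma, adjusted p = 0.0231). The ratio of KIF3B to KIF3A was 2.35 and 2.58 in si-NC and 1.85 and 2.05 in si-152, without overlap. KIF3B had been picked for its p in the same libraries, so the ratio adds no separate evidence. KIF3C and KIF17, the remaining kinesin-2 motors, were under 1 FPKM in every library. When the kinesin-2 genes were left out of the transport list, its median log2 fold change was 0.06. The difference between mitotic and transport medians was then -0.15. KIF3B and KIF3A both lay below the transport median, so leaving them out could only raise it.

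**Figure D3:**
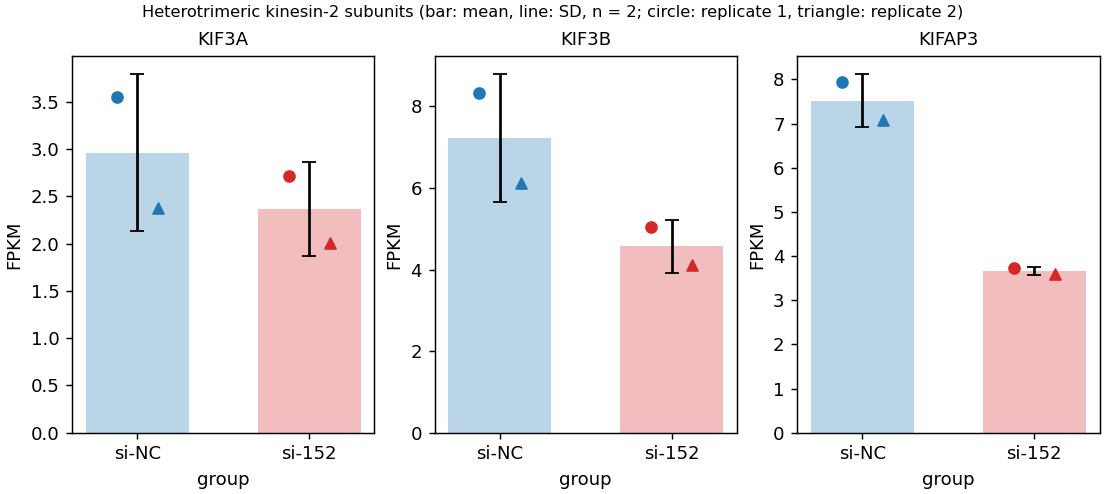
FPKM of KIF3A, KIF3B and KIFAP3, the subunits of heterotrimeric kinesin-2, in si-NC and si-152 (bars are means, lines SD, n = 2, circles replicate 1, triangles replicate 2). The si-152 libraries lie below both si-NC libraries for KIF3B and KIFAP3, and the groups overlap for KIF3A.

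Among mitotic kinesins, the lowest log2 fold changes belonged to genes of cytokinesis. KIF23, the motor subunit of centralspindlin, had 25.0 and 16.4 FPKM with si-NC and 17.0 and 14.6 FPKM with si-152, and 17.0 FPKM lies within the si-NC range. Its log2 fold change was -0.34 (SE 0.22, 95% interval -0.83 to 0.14). It moved to -0.64 without si-NC replicate 2, with an unadjusted p under 0.05, and to -0.049 without si-NC replicate 1. KIF20A, which brings the chromosomal passenger complex to the central spindle, had 15.5 and 12.2 FPKM with si-NC and 11.5 and 9.87 FPKM with si-152. Its groups did not overlap, and its log2 fold change was -0.34 (SE 0.19, 95% interval -0.77 to 0.09). Without si-NC replicate 2 it was -0.50, with an unadjusted p under 0.05, and without si-NC replicate 1 it was -0.17. KIF14 and KIF20B also serve cytokinesis, and their log2 fold changes were -0.07 and 0.14, so the genes of this step did not share a direction.

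The motors that set up the spindle and move chromosomes follow. KIF11, the tetrameric motor that pushes the spindle poles apart, had 14.4 and 9.07 FPKM with si-NC and 10.4 and 8.51 FPKM with si-152, a log2 fold change of -0.26 (95% interval -0.77 to 0.26). Without si-NC replicate 2 it was -0.56, with an unadjusted p under 0.05, and without si-NC replicate 1 it was 0.049. For KIF22 and KIF2C the values were -0.14 (95% interval -0.53 to 0.25) and -0.10 (95% interval -0.48 to 0.28). KIF2A, which depolymerizes microtubules at spindle poles, was at 10.8 and 7.29 FPKM against 8.95 and 7.57 FPKM. KIF4A, a chromokinesin that works with PRC1 on the central spindle, had a log2 fold change of -0.08. KIF18A, which aligns chromosomes at the metaphase plate, was at 10.6 and 7.56 FPKM against 10.3 and 8.87 FPKM, a log2 fold change of 0.08. KIF18B, which shortens astral microtubules, was at 12.3 and 9.31 FPKM against 12.7 and 9.42 FPKM, a log2 fold change of 0.03 that turned to -0.0018 with quantile normalization. For KIF18A and KIF18B the replicates lay farther apart than the groups. All of these intervals include 0. Those of KIF22, KIF2C and KIF11 reach down to between -0.77 and -0.48, so a lower level of that size could not be told from none. Of the tested mitotic kinesins, the 7 with TTTGAA in the promoter had log2 fold changes from -0.34 (KIF23) to 0.14 (KIF20B), and the 4 without it from -0.34 (KIF20A) to -0.10 (KIF2A and KIF2C).

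**Figure D4:**
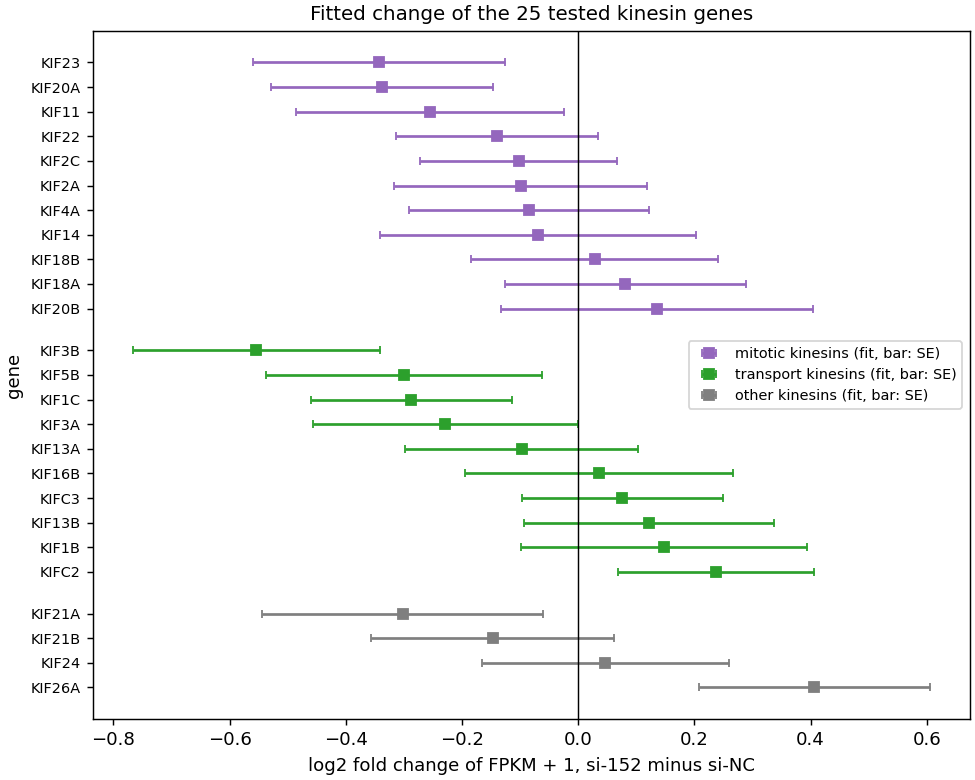
Fitted log2 fold change (si-152 minus si-NC, on log2(FPKM + 1)) of the 25 tested kinesin genes, grouped by role and ordered by value. Squares are limma estimates and bars their standard errors. KIF3B at -0.55 and KIF26A at 0.41 mark the ends, and mitotic kinesins run from -0.34 to 0.14.

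Transport kinesins had log2 fold changes on both sides of 0. KIF1C, which carries cargo between Golgi and cell periphery, had 18.4 and 21.7 FPKM with si-NC and 15.6 and 16.9 FPKM with si-152. These groups did not overlap, and the log2 fold change was -0.29 (SE 0.17, 95% interval -0.68 to 0.10). For KIF5B it was -0.30 (SE 0.24, 95% interval -0.83 to 0.23), at -0.40 in pair 1 and -0.20 in pair 2. It was -0.62 without si-NC replicate 2 and -0.52 without si-152 replicate 1, both with an unadjusted p under 0.05, and 0.019 without si-NC replicate 1. KIFC2, a minus-end-directed transport motor, had 14.2 and 15.4 FPKM with si-NC and 17.0 and 18.2 FPKM with si-152, and both si-152 libraries were the higher ones. Its log2 fold change was 0.24 (SE 0.17, 95% interval -0.14 to 0.61), at 0.24 in pair 1 and 0.23 in pair 2. KIFC3, which also walks toward minus ends and acts at cell junctions, had 12.1 and 11.6 FPKM with si-NC and 12.0 and 13.2 FPKM with si-152, with overlapping groups. KIF1B, a carrier of mitochondria and synaptic vesicle precursors, was at 4.61 and 3.09 FPKM against 5.36 and 3.43 FPKM, with 1 si-152 library inside the si-NC range. Its log2 fold change was 0.15 (SE 0.25). KIF13A, KIF13B and KIF16B, which carry endosomal and plasma membrane cargo, lay between -0.10 and 0.12.

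KIF26A had the highest log2 fold change of the tested kinesins, at 0.41 (SE 0.20, 95% interval -0.04 to 0.85). It encodes an atypical kinesin that binds microtubules without moving along them. KIF26A had 1.94 and 2.16 FPKM with si-NC and 2.80 and 3.29 FPKM with si-152, and the groups did not overlap. KIF21A, which slows microtubule growth at the cell cortex, was the most abundant of the other kinesins, at 5.53 and 3.40 FPKM with si-NC, against 3.86 and 2.89 FPKM with si-152. Its log2 fold change of -0.30 (SE 0.24) was -0.59 without si-NC replicate 2, with an unadjusted p under 0.05, and -0.018 without si-NC replicate 1. KIF21B and KIF24 were at -0.15 and 0.05.

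Kinesin levels also differed by replicate number. In 19 of the 25 tested kinesins, replicate 1 was above replicate 2 in both groups, against 44.2% of all tested genes. In 18 of the 25, the log2 difference between the si-NC replicates was larger than the fitted difference between the groups, which is near the 65.5% of all tested genes for which this held. The median log2 difference of replicate 1 to replicate 2 was 0.39 in si-NC and 0.21 in si-152 for kinesins, and 0.11 and 0.01 for all tested genes. Over the 11 tested mitotic kinesins, this difference was larger for genes with a longer longest coding transcript, with a Spearman rho of 0.87 in si-NC and 0.77 in si-152. Over the 10 transport kinesins the rho was 0.055 and 0.49, over all 25 tested kinesins 0.11 and 0.35, and over the 10776 tested genes with a length 0.59 and 0.63. The median length was 3723 bases for tested mitotic kinesins and 6214 for tested transport kinesins. It was 5877 for all tested kinesins and 3366 for all tested genes with a length. The sets thus differed in length, and its part in the differences between them was not tested. Between length and the log2 fold change of si-152 to si-NC, the rho was 0.44 for mitotic kinesins, 0.0061 for transport kinesins, 0.16 for all tested kinesins and 0.28 for all tested genes with a length. The points share their libraries, so these are descriptions.

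The partners of the mitotic kinesins were read from lists of genes. The 14 partners include PRC1, RACGAP1, TPX2 and the chromosomal passenger proteins. Of these 14, 11 had a log2 fold change below 0, against 45.8% of all tested genes. Only 1 passed an unadjusted p under 0.05 (4.38% of all tested genes did). The median of the 14 was -0.09, at -0.25 in pair 1 and 0.06 in pair 2. RACGAP1, which pairs with KIF23 in centralspindlin, had 21.0 and 19.9 FPKM with si-NC and 22.2 and 19.9 FPKM with si-152. AURKB, the kinase that KIF20A relocates, had 40.2 and 40.7 FPKM with si-NC and 28.9 and 30.6 FPKM with si-152. Its log2 fold change was -0.43 (SE 0.16; limma, adjusted p = 0.9996), and the groups did not overlap. The log2 fold change kept about this size without si-NC replicate 1 (-0.44), without si-NC replicate 2 (-0.42) and without si-152 replicate 1 (-0.39), but its unadjusted p was then not under 0.05. CENPE, a kinetochore kinesin whose symbol does not begin with KIF, was at 4.82 and 2.64 FPKM against 4.33 and 2.56 FPKM.

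Of 20 other genes of G2 and M phase, 16 had a log2 fold change below 0 (45.8% of all tested genes did). Their median was -0.15. The pair medians were -0.22 and -0.05. In both pairs 12 of the 20 were lower (27.3% of all tested genes were) and 3 higher (35.6% were). For 6 of the 20 the si-152 libraries both lay below both si-NC libraries (13.9% of all tested genes), and for 0 above (16.5%). These genes share their libraries and were not tested as a set. CCNA2, the cyclin of S and G2 phase, was the 1 member of the 20 called at an unadjusted p under 0.05. Among all tested genes 4.38% were called, so 1 of 20 is near the background. Its level was 32.2 and 28.8 FPKM with si-NC, against 24.4 and 21.6 FPKM with si-152. Both si-152 libraries were the lower ones, with a log2 fold change of -0.39 (SE 0.17). That call was lost with any 1 of the 4 libraries left out (log2 fold change between -0.48 and -0.31) and without the variance trend. FOXM1 and MYBL2, transcription factors that switch on mitotic kinesin genes, had log2 fold changes of -0.17 and -0.15, the lowest of the 14 regulators listed. The median of the 14 was 0.10, and TFDP1 was the highest at 0.37. Of the 14, 10 were above 0, against 6085 of the 11222 genes tested. The si-152 libraries both lay above both si-NC libraries for 5 regulators (16.5% of all tested genes) and below for 1 (13.9%). None of the 14 had an unadjusted p under 0.05.

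Most proteins that tie transport kinesins to cargo had log2 fold changes above 0, unlike KIFAP3. Of 17 light chains and adaptors, 14 had a log2 fold change above 0, against 6085 of the 11222 genes tested. Below 0 beside KIFAP3 were KIAA1279 (-0.14) and TRAK2 (-0.11). The median of the list was 0.13 (0.06 in pair 1 and 0.15 in pair 2). For all tested genes the median was 0.02 (-0.03 in pair 1 and 0.07 in pair 2). The light chains KLC1 and KLC2, which attach KIF5 motors to cargo, were at 31.7 and 35.6 FPKM against 32.1 and 37.3 FPKM, and at 20.5 and 21.4 FPKM against 19.6 and 22.8 FPKM. KIFAP3 was the only member of the list with an unadjusted p under 0.05 (4.38% of all tested genes had one). Cytoplasmic dynein and its cofactor dynactin, the motor that runs toward microtubule minus ends, had 18 tested genes with a median log2 fold change of -0.0089. Of these, 10 were below 0 (45.8% of all tested genes were), and none had an unadjusted p under 0.05.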

How the data were processed

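RNA-seq values of 2 si-NC and 2 si-152 libraries of HCT116 cells were used, grouped by the sample labels. The authors deposited 1 value per gene symbol and library, and these were read as FPKM, since the files carry decimals, exact zeros and unequal sums and name no unit. The submitters' processing notes name Trimmomatic, TopHat, HISAT2, HTSeq, DESeq and GRCh38, without roles or versions. Strandedness and annotation are not given in the sources used here. Without counts, DESeq could not be applied, and no counting error can be given.

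Values were not rescaled. After adding a pseudocount of 1, log2 values were fitted in limma 3.58.1 (R 4.3.3), letting the variance follow the mean level. Genes entered if 2 or more libraries reached 1 FPKM (11222 genes), and p-values were adjusted over all of them by Benjamini-Hochberg. A fold change on this scale understates low genes. The fit was checked on simulated data. Medians, counts and figures were made in Python 3.11.15. No gene list was tested as a set.

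Kinesins named with values were those with an unadjusted p under 0.05, those with groups that did not overlap and a log2 fold change of at least 0.3 in size, the 8 mitotic and 6 transport kinesins of highest mean and the top other kinesin. Any other gene in the text was chosen with its values known. From the other lists, members with an unadjusted p under 0.05 were named, and a few others for their role. The members and lists were chosen with earlier results of these data known. The study's methods describe the replicates as independently plated, so p-values measure the spread between such cultures of 1 cell line. Alternatives were the pseudocount, the filter, the scaling, the variance trend, a replicate block, the lists' membership and each library left out. KIF23 and KIF1C overlap antisense genes in RefSeq, from which they cannot be told apart here.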

Additional observations from a re-analysis of the deposited data

How the results depend on the processing

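Leaving out 1 library at a time, the count of tested genes at p under 0.05 and 1.5-fold ran from 242 to 546 (186 with all libraries), and the count of kinesins at p under 0.05 from 0 to 6 (1 with all). The mitotic median ran from -0.31 to 0.15, the transport median from -0.20 to 0.067 and their difference from -0.11 to 0.078. Signs turned among these for KIF2C (-0.22 to 0.019), KIF11 (-0.56 to 0.049), KIF2A (-0.35 to 0.15), KIF5B (-0.62 to 0.019), KIF22 (-0.29 to 0.011), KIF18A (-0.14 to 0.30), KIF18B (-0.17 to 0.23) and KIF1B (-0.11 to 0.41). A left-out library leaves 1 group with a single sample, assumed to vary like the other group. KIFAP3 lay between -0.94 and -0.80 with a library left out and at -1.02 with a pseudocount of 0.1, and its unadjusted p was under 0.05 under every alternative run. With no filter on low values 0 kinesins passed p under 0.05. Without the kinesin-2 genes the mitotic minus transport difference was -0.15, a direction fixed by leaving out genes below the transport median. With quantile normalization KIF18B turned to -0.0018. The cause was not tested.

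With the replicate number as a block, 7 kinesins had an unadjusted p under 0.05 by limma (KIF3B, KIF20A, KIF23, KIF26A, KIF5B, KIF1C and KIF21A), 6 of them lower, against 16.9% of all tested genes. None passed adjustment over all genes, and the lowest adjusted p was 0.0741, for KIF3B. KIFAP3 had an adjusted p of 0.0231 with the block, 1 of 78 genes under 0.05. The deviations of same-numbered libraries correlated at 0.52 across genes, but the labels do not tie the numbers to a shared batch or day, so the block rests on the numbers alone. Without read numbers, values under 1 FPKM cannot be given an error.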
